A study of Mus musculus with 35 samples.

Results

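Spermatogonial genes are the 10 genes Kit, Stra8, Dmrt1, Zbtb16, Sall4, Gfra1, Id4, Sohlh1, Uchl1 and Nanos3, chosen by name, and all 10 were found among the 24411 gene rows of the count tables. They were followed in meiotic and post-meiotic cells, which come after the stage these genes are known for. The data are RNA-seq of pachytene spermatocytes (Spc) and round spermatids (RS), with 3 control (CTRL) and 3 Smg6-cKO libraries of each, and of isolated chromatoid bodies (CB), with 4 CTRL and 3 cKO libraries. The CB is a germline RNA granule in the cytoplasm of round spermatids, and SMG6 is an endonuclease of nonsense-mediated RNA decay.

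The cKO mice were adult Smg6 fx/fx animals carrying Ngn3Cre, a Cre transgene driven by the Neurogenin 3 promoter, which is active in early postnatal spermatogonia, so that the floxed exon 9 is deleted from the spermatogonial stage on. CTRL mice were littermates without Cre and were Smg6 fx/fx or fx/wt, so the controls also carried floxed alleles, and all mice were of a mixed C57Bl/6J and SV129 background. Spc and RS were enriched from testis cells by velocity sedimentation in a BSA gradient, and by the paper's DAPI staining neither fraction was pure. CBs were precipitated with an antibody against the germ granule protein DDX4 from pools of 2 to 4 mice. Libraries of Spc and RS were made from poly(A) RNA and those of CBs from total RNA by another kit, so CB levels were compared only among CB libraries. The submitters describe RS and Spc as prepared from the same testes, and the paper gives several testes per isolation, so a library may pool mice. The labels do not say whether equal replicate numbers mark the same mice.

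Spermatogonia hold the stem cells of the testis. Undifferentiated spermatogonia depend on GDNF, which binds the receptor GFRA1, and are maintained by transcriptional regulators such as ZBTB16, SALL4 and ID4. Retinoic acid drives their differentiation, with the receptor KIT appearing at the cell surface and STRA8 preparing the entry into meiosis, while DMRT1 holds that entry back in spermatogonia. By the pachytene stage these programs have largely been shut off, so most of their transcripts would be low in pure meiotic cells.

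Kit is the member with a well known second transcript in spermatids, which starts inside the gene and encodes a truncated receptor, and the boundary where that transcript and the full-length one join is shown for that reason. The 30 bases lie at chr5:75649532-75649561 (GRCm38.p6, plus strand, RefSeq assembly), with the last 15 bases of the intron in lower case and the first 15 bases of exon 17 of 21 in capitals.
Kit intron/exon 17: tttctcccccaacagTGTATTCACAGAGAT
The transcript ENSMUST00000202167 (Kit-208), annotated as a retained-intron and not as a protein-coding transcript, starts at 75649094, so 453 bases of this intron belong to it and not to the full-length transcript ENSMUST00000005815 (Kit-201).

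Stra8 is the member known as a retinoic acid target, and its promoter is shown for the hexamer AGGTCA, a half-site of nuclear receptors such as those for retinoic acid. RefSeq promoters of 250 bases before to 50 after a start site (GRCm38.p6) were matched by symbol for 7 of the 10 genes, with no entry used for Dmrt1, Zbtb16 and Sall4. AGGTCA, searched on both strands, was in the promoter of 2 of these 7 genes, Stra8 and Sohlh1, and in 16.3% of all 32851 promoters. The 2 matches of Stra8, in capitals, start 194 and 38 bases before its RefSeq start on the plus strand of chromosome 6. Both lie inside the annotated gene, chr6:34920163-34939344, because its longest annotated transcript starts upstream of them. The other annotated Stra8 transcripts start after both matches.
Stra8, chr6:34920742-34920771: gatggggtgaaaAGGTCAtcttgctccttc
Stra8, chr6:34920898-34920927: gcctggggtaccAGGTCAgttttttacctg
CACGTG, an E-box that basic helix-loop-helix factors can bind, was in the promoter of 1 of the 7 genes, Sohlh1, and in 7.15% of all promoters, and of its 3 matches there the one that starts 211 bases before the start site shares bases with the AGGTCA match of Sohlh1. A match is a description of the sequence and not of a bound site.

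Gene counts summed to 36419197 to 47355837 per library in Spc, 40237647 to 45391308 in RS and 2705277 to 12103906 in CBs. Levels are given as scaled CPM, gene counts set relative to the library's total after TMM scaling, with Spc and RS scaled together and CBs by themselves. TMM corrects that total for the bulk of genes. Groups were compared by the quasi-likelihood test of edgeR, two-sided, with p adjusted over all genes tested and a threshold of 0.05. These p values measure only the spread between these libraries. Counts of Smg6 itself cover the whole gene and so do not check the deletion of an exon, and its scaled CPM was 182.1 to 189.2 in cKO Spc, 109.2 to 171.5 in CTRL Spc, 189.5 to 203.1 in cKO RS and 143.2 to 234.9 in CTRL RS. In bulk libraries, fewer cells of a type and less RNA per cell cannot be told apart, and the same holds for more of either.

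The 10 genes together had 92.1 to 114.7 scaled CPM per library in CTRL Spc and 54.3 to 65 in CTRL RS, against 124.3 to 165.1 in cKO Spc and 93.5 to 141.0 in cKO RS. In CBs the sum was 35.7 to 48.5 in CTRL and 68.2 to 146.9 in cKO. In all of these fractions the lowest cKO library was above the highest CTRL library for the sum, although single genes went their own ways. The sum weighs abundant genes most, with means of 40.8 for Id4 and 22.2 for Uchl1 in CTRL Spc. In the cKO CB library at 146.9 Stra8 alone had 60.8.

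Levels per length compare the genes with each other, as scaled CPM per kb of the longest transcript of each gene in the deposited tables. The place of Id4 in this order turns on its length, 1660 nt in those tables and 3849 nt in GENCODE vM21, an alternative chosen after seeing the data. In CTRL Spc Id4 had 24.6 ± 3.35 (mean ± SD, n = 3) at the deposited length and 10.6 ± 1.45 at the GENCODE length, against 18.9 ± 3.73 for Uchl1, so the mean of Id4 was first by the deposited length and that of Uchl1 by the other. At the deposited length the libraries overlapped, at 20.7 to 26.7 for Id4 and 15.1 to 22.5 for Uchl1. Dmrt1 followed with 5.26 ± 0.517, then Stra8 with 2.74 ± 0.196, Kit with 2.35 ± 0.609 and Sohlh1 with 1.91 ± 0.155, of which the neighbours from Stra8 to Sohlh1 overlapped. Gfra1 had 1.13 ± 0.0949, Nanos3 0.841 ± 0.164, Zbtb16 0.687 ± 0.141 and Sall4 0.462 ± 0.0693, with Nanos3 overlapping Zbtb16 and the libraries of Zbtb16 (0.527 to 0.79) overlapping those of Sall4 (0.401 to 0.537). The order differed in CTRL RS, where Uchl1 led with 12.6 ± 2.64 per kb and Id4 had 4.34 ± 0.335, or 1.87 ± 0.144 at the GENCODE length. In cKO RS Uchl1 led with 21.9 ± 6.33, followed by Dmrt1 with 8.34 ± 1.71 and Stra8 with 8.13 ± 3.11, which overlapped. Id4 in cKO RS had 7.01 ± 1.6 at the deposited length, a mean inside the range of the Stra8 libraries (5.14 to 11.3) and below that of Dmrt1 (7.2 to 10.3). At the GENCODE length Id4 had 3.02 ± 0.692, below both.

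**Figure D1:**
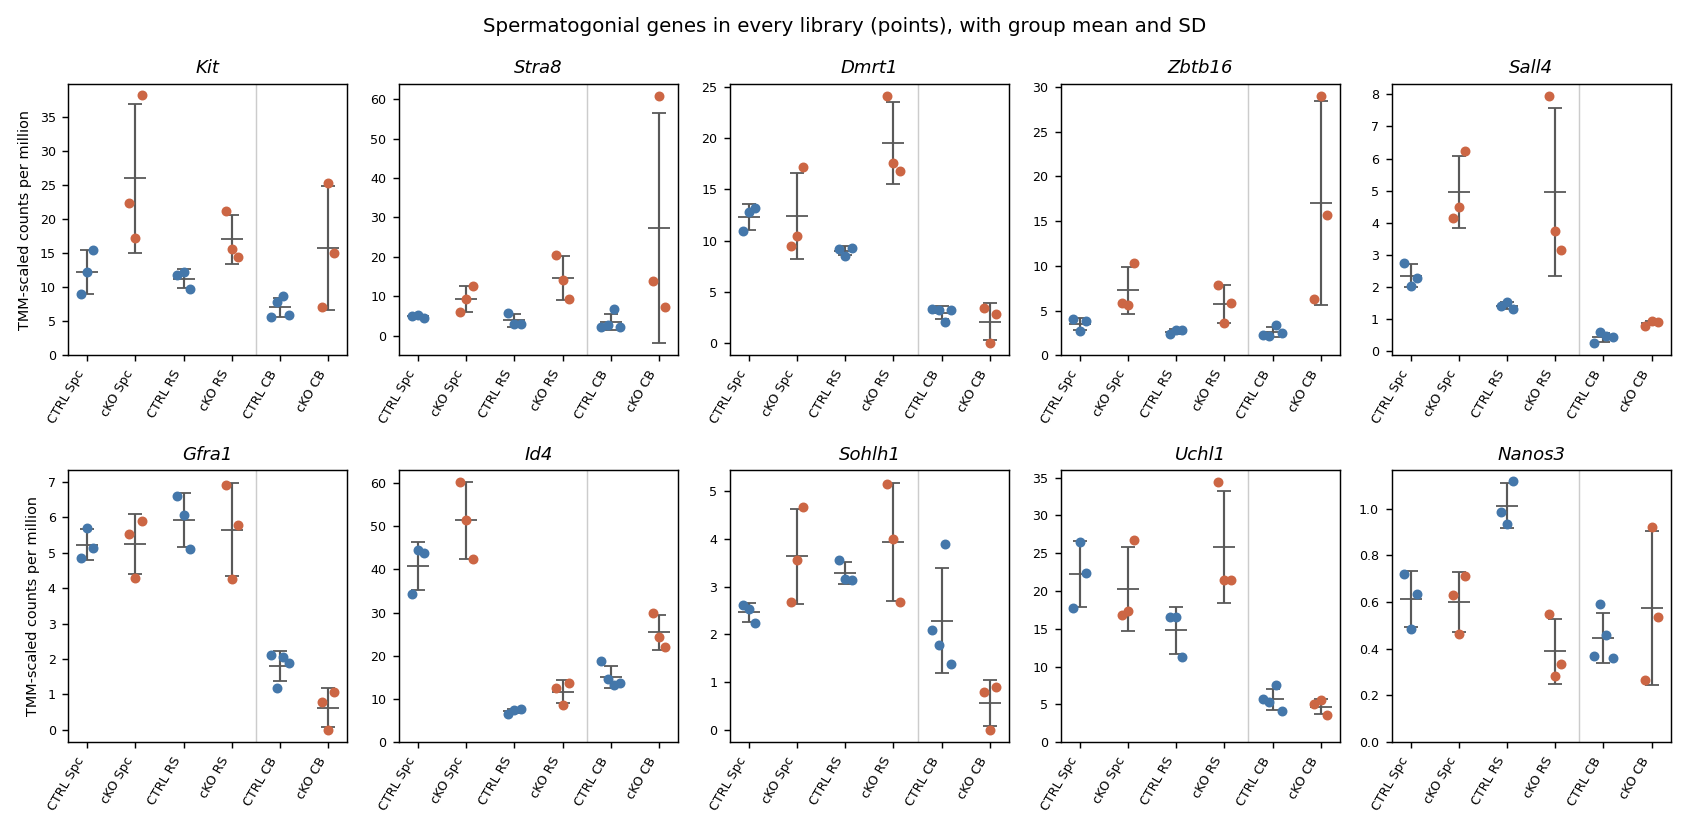
Scaled CPM (y axis) of each gene in every library (points), by group (x axis), with the group mean and SD as grey bars, and CB libraries right of the grey line because they were scaled by themselves. The panels of 7 genes show cKO RS above CTRL RS with no overlap, and Nanos3 shows the opposite, at 0.285 to 0.548 in cKO RS and 0.935 to 1.12 in CTRL RS.

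In RS 7 of the 10 genes were higher in cKO (Stra8, Sall4, Dmrt1, Zbtb16, Uchl1, Id4 and Kit), Nanos3 was lower, and Gfra1 and Sohlh1 did not pass the test. Among all 17492 genes tested in RS, 38.4% were higher and 34.3% were lower at the same threshold, and the median log2 fold change was 0.76 for the 10 genes and 0.11 for all genes. The scaled CPM of the groups did not overlap for 7 members that were higher and 1 that was lower, against 40% and 36.9% of all genes. Only Stra8 and Sall4 of the 10 reached a log2 fold change of 1.5 as well, which 14.8% of all genes did in the upward direction.

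Of the regulators of undifferentiated cells, Zbtb16, the zinc finger repressor PLZF that keeps spermatogonial stem cells from being lost, is at chr9:48654297-48836222 (ENSMUSG00000066687, GRCm38, minus strand). It had 2.39, 2.8 and 2.8 scaled CPM in the CTRL RS libraries and 7.83, 3.64 and 5.81 in the cKO RS libraries 1 to 3. All cKO libraries were above all CTRL libraries, and the log2 fold change was 1.13 (SE 0.29, edgeR adjusted p = 0.008). In Spc it had 4.03, 2.69 and 3.79 in CTRL and 5.85, 5.66 and 10.3 in cKO. Again the groups did not overlap, but the log2 fold change of 0.95 (SE 0.31) had an edgeR adjusted p of 0.056.

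Sall4, a zinc finger transcription factor of undifferentiated and early differentiating spermatogonia, is at chr2:168748332-168767943 (ENSMUSG00000027547, minus strand). Its scaled CPM was 1.4, 1.52 and 1.32 in CTRL RS and 7.95, 3.73 and 3.15 in cKO RS, a log2 fold change of 1.82 (SE 0.37, edgeR adjusted p = 0.0026). The CTRL libraries were close to each other, and cKO RS library 1 stood above the other cKO libraries, without which the log2 fold change was 1.36. In Spc Sall4 had 2.73, 2.03 and 2.27 in CTRL and 4.15, 4.5 and 6.25 in cKO, and it was the single gene of the 10 past the threshold there (log2 fold change 0.98, SE 0.25, edgeR adjusted p = 0.028). That call was lost, with an edgeR adjusted p of 0.052 to 0.093, without cKO Spc library 1 or 3 or without CTRL Spc library 2 or 3.

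Id4 encodes a helix-loop-helix protein without a DNA-binding region, which marks spermatogonial stem cells, and lies at chr13:48261228-48266026 (ENSMUSG00000021379, plus strand). In RS it had 6.57, 7.48 and 7.57 scaled CPM in CTRL and 12.5, 8.66 and 13.8 in cKO. No cKO library reached down to the CTRL range, and the log2 fold change was 0.70 (SE 0.19, edgeR adjusted p = 0.011). In Spc it had 34.4, 44.4 and 43.7 in CTRL and 60.2, 51.5 and 42.4 in cKO, groups that overlapped (log2 fold change 0.22, edgeR adjusted p = 0.29).

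Nanos3, an RNA-binding protein that keeps germ cells alive and is found in undifferentiated spermatogonia, is at chr8:84173731-84185217 (ENSMUSG00000056155, minus strand). It was the scarcest gene by counts, with 29 to 34 counts per CTRL RS library and 13 to 26 per cKO RS library. In scaled CPM these were 0.985, 0.935 and 1.12 in CTRL and 0.548, 0.285 and 0.335 in cKO. Every cKO RS library was below every CTRL RS library, and the log2 fold change was -1.36 (SE 0.35, edgeR adjusted p = 0.0077), which no single library decided. Scaled by library size alone, the log2 fold change of Nanos3 was -0.74 with an edgeR adjusted p of 0.089. Its Spc levels overlapped, with 26 to 31 counts in CTRL and 21 to 36 in cKO (log2 fold change -0.14, edgeR adjusted p = 0.77).

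Gfra1, the GDNF receptor of spermatogonial stem cells, is at chr19:58235604-58455909 (ENSMUSG00000025089, minus strand). It had 6.6, 6.06 and 5.1 scaled CPM in CTRL RS and 6.9, 4.27 and 5.79 in cKO RS, and 4.84, 5.71 and 5.12 in CTRL Spc and 5.52, 4.28 and 5.9 in cKO Spc. The groups overlapped in both cell types, and the log2 fold changes were -0.05 (SE 0.22, edgeR adjusted p = 0.83) in RS and -0.11 (SE 0.19, edgeR adjusted p = 0.7) in Spc. Scaled by library size alone, the RS value of Gfra1 was 0.57 with an edgeR adjusted p of 0.054.

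Of the genes of differentiation, Kit encodes the receptor for stem cell factor, is first made in differentiating spermatogonia and in the testis is also made by Leydig cells. The gene is at chr5:75574916-75656722 (ENSMUSG00000005672, plus strand). It had 11.8, 12.3 and 9.78 scaled CPM in CTRL RS and 21.2, 15.6 and 14.4 in cKO RS. The groups were apart, with a log2 fold change of 0.61 (SE 0.18, edgeR adjusted p = 0.014), and without CTRL RS library 3 the adjusted p was 0.057. In Spc the values were 9.08, 12.3 and 15.5 in CTRL and 22.4, 17.3 and 38.3 in cKO, with cKO library 3 standing highest. The log2 fold change in Spc was 0.98 (SE 0.32, edgeR adjusted p = 0.06). The interaction of Kit, its log2 fold change in RS less that in Spc, was -0.48 (edgeR adjusted p = 0.34) and turned to 0.22 (0.72) under library size alone. DESeq2 gave Kit in Spc an adjusted p of 0.015.

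Stra8 is switched on by retinoic acid in differentiating spermatogonia and preleptotene spermatocytes and is needed for the start of meiosis. It lies at chr6:34920163-34939344 (ENSMUSG00000029848, plus strand). It had the largest log2 fold change of the 10 genes in RS, 1.92 (SE 0.37, edgeR adjusted p = 0.0018), a 3.78-fold difference. CTRL RS libraries had 5.85, 2.84 and 3.03 scaled CPM and cKO RS libraries 20.5, 14.2 and 9.28, with no overlap. Spc libraries had 5.01, 5.24 and 4.55 in CTRL and 5.99, 9.24 and 12.7 in cKO, also with no overlap, a log2 fold change of 0.82 (SE 0.29, edgeR adjusted p = 0.071).

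Dmrt1, a DM domain transcription factor that acts in spermatogonia and is also made by Sertoli cells, is at chr19:25505618-25604329 (ENSMUSG00000024837, plus strand). In RS the CTRL libraries were tightly grouped at 9.22, 8.48 and 9.25 scaled CPM and the cKO libraries were at 24.1, 17.6 and 16.8. It had the smallest adjusted p of the 10 genes in RS (log2 fold change 1.13, SE 0.16, edgeR adjusted p = 0.00041). In Spc the levels were 10.9, 12.8 and 13.2 in CTRL and 9.51, 10.4 and 17.2 in cKO. These overlapped, with a log2 fold change of -0.10 (SE 0.25, edgeR adjusted p = 0.79).

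Sohlh1, a basic helix-loop-helix factor needed for spermatogonial differentiation, is at chr2:25842995-25847248 (ENSMUSG00000059625, minus strand). Its scaled CPM was 3.55, 3.16 and 3.13 in CTRL RS and 5.15, 3.99 and 2.68 in cKO RS, which overlapped (log2 fold change 0.28, SE 0.26, edgeR adjusted p = 0.37). Scaled by library size alone it was 0.90 with an edgeR adjusted p of 0.016. Without cKO RS library 3 the log2 fold change was 0.54 and the edgeR adjusted p 0.049. In Spc it had 2.61, 2.54 and 2.23 in CTRL and 2.68, 3.56 and 4.67 in cKO (log2 fold change 0.46, SE 0.26, edgeR adjusted p = 0.22).

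Uchl1, a ubiquitin hydrolase widely used to mark spermatogonia, is at chr5:66676091-66687234 (ENSMUSG00000029223, plus strand). In RS it had 16.6, 16.6 and 11.2 scaled CPM in CTRL and 34.4, 21.5 and 21.5 in cKO. The cKO libraries were all higher, with a log2 fold change of 0.81 (SE 0.23, edgeR adjusted p = 0.013). The Spc libraries overlapped, with 17.8, 26.5 and 22.4 in CTRL and 16.8, 17.4 and 26.7 in cKO (log2 fold change -0.23, SE 0.23, edgeR adjusted p = 0.47).

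Across the 10 genes in Spc, 1 was higher (Sall4) and 0 were lower by edgeR, against 14% of 17321 genes higher and 14.1% lower, so by edgeR the share called was near that of all genes. At an unadjusted p under 0.05 edgeR had 4 of the 10, Kit, Stra8, Zbtb16 and Sall4, against 42.5% of all genes in either direction. DESeq2 gave 4 of the 10 an adjusted p of at most 0.05, all higher, against 17.3% of all genes. By edgeR, Kit passed without cKO Spc library 2 (adjusted p = 0.034) and Stra8 without cKO Spc library 1 (adjusted p = 0.035). The scaled CPM of cKO Spc was above that of CTRL Spc without overlap for 5 genes, against 30.7% of all genes. The median log2 fold change was 0.34 for the 10 genes and -0.01 for all genes.

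**Figure D2:**
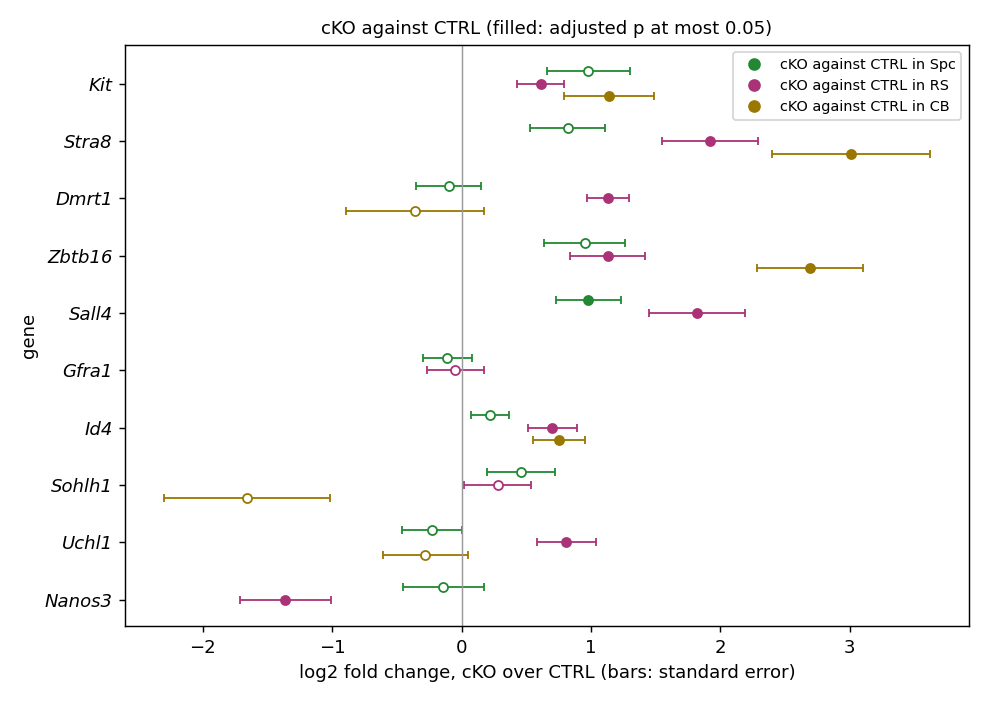
Log2 fold change of cKO over CTRL (x axis, bars are standard errors) of each gene (y axis) in Spc, RS and CB, with filled points at an edgeR adjusted p of at most 0.05. RS points lie right of 0 and filled for 7 genes and left for Nanos3 at -1.36, and in Spc Sall4 at 0.98 is filled, while no CB point is drawn for Sall4, Gfra1 and Nanos3, which were not tested there.

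Whether the genotype difference itself was unlike in RS and Spc was tested as an interaction over the 12 Spc and RS libraries. It passed for 2 of the 10 genes, Dmrt1 and Nanos3, against 43.1% of the 18171 genes tested. With library size in place of TMM, 5 passed as higher in RS and 0 as lower, against 44.5% of all genes higher, with Dmrt1 joined by Stra8 (1.69, edgeR adjusted p = 0.02), Uchl1 (1.63, 0.0051), Sall4 (1.42, 0.03) and Id4 (1.08, 0.0048). For Dmrt1 the log2 fold change in RS exceeded that in Spc by 1.11 (SE 0.31, edgeR adjusted p = 0.014), and for Nanos3 the difference was -1.35 (SE 0.44, edgeR adjusted p = 0.029). The Nanos3 call was lost when any of 7 libraries was left out (edgeR adjusted p of 0.053 to 0.07). Scaled by library size alone, the Nanos3 interaction was -0.64 with an edgeR adjusted p of 0.27. Uchl1 had an interaction of 0.93 with an edgeR adjusted p of 0.053, which DESeq2 gave as 0.018 and which passed by edgeR when any of 4 libraries was left out (0.017 to 0.041). Stra8 had 0.99 with an edgeR adjusted p of 0.13, and 1.40 with 0.04 without CTRL RS library 1.

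In the CB libraries 7 of the 10 genes had enough counts to be tested. Of these 4 were higher in cKO (Stra8, Zbtb16, Kit and Id4) and 0 were lower by edgeR, which had 5 at an unadjusted p under 0.05 (46.4% of all genes), as did DESeq2. Among 14051 genes 18.1% were higher and 18.4% lower. Stra8 and Zbtb16 also reached a log2 fold change of 1.5, as 5.69% of all genes did upward. The scaled CPM of cKO and CTRL CBs was apart and higher for 3 of the 7 genes and lower for 1, against 19% and 20.8% of all genes.

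Stra8 had 2.1, 2.81, 6.63 and 2.25 scaled CPM in the CTRL CB libraries, from 17 to 31 counts, and 13.8, 60.8 and 7.32 in the cKO CB libraries, from 41 to 132 counts. The groups did not overlap but the cKO libraries were far apart among themselves. The log2 fold change was 3.01 (SE 0.61, edgeR adjusted p = 0.0023), an 8.04-fold difference, and it was 1.70 without the cKO library at 60.8. Zbtb16 had 2.23, 2.22, 3.43 and 2.46 in CTRL CBs and 6.35, 29 and 15.7 in cKO CBs, all cKO libraries being above all CTRL libraries. Its log2 fold change of 2.69 (SE 0.41, edgeR adjusted p = 0.00039) had the smallest adjusted p among the 10 genes in CBs.

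Kit had 5.69, 7.84, 8.69 and 5.94 in CTRL CBs and 7.14, 25.3 and 15 in cKO CBs, so the groups overlapped through 1 cKO library. The log2 fold change was 1.14 (SE 0.35, edgeR adjusted p = 0.02), and the adjusted p was 0.12 without the cKO library at 25.3, 0.061 without the CTRL library at 5.69 and 0.058 without the one at 5.94. Id4 had 18.8, 14.6, 13.3 and 13.6 in CTRL and 29.9, 24.4 and 22.1 in cKO, with a log2 fold change of 0.75 (SE 0.20, edgeR adjusted p = 0.012). The groups of Id4 were apart, but without the cKO library at 29.9 its edgeR adjusted p was 0.06, and scaled by library size alone it was 0.11.

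Sohlh1 had 12 to 19 counts per CTRL CB library and 0, 3 and 5 in the cKO CB libraries, and its log2 fold change of -1.66 (SE 0.64) had an edgeR adjusted p of 0.057. It passed without the CTRL library in which Kit was at 5.94 (0.046), scaled by library size alone (0.025) and without the count filter (0.04). Dmrt1 counts were 9 to 45 in CTRL and 0 to 16 in cKO, and Uchl1 counts 33 to 57 and 12 to 20, in cKO libraries of lower depth. Neither differed by the test, with log2 fold changes of -0.36 (SE 0.53, edgeR adjusted p = 0.62) and -0.28 (SE 0.33, edgeR adjusted p = 0.53). Gfra1 with 0 to 26 counts, Sall4 with 2 to 6 and Nanos3 with 1 to 5 were left out by the count minimum. The scaled CPM of Sall4 was 0.247 to 0.592 in CTRL CBs and 0.793 to 0.921 in cKO CBs, and that of Gfra1 was 1.18 to 2.1 and 0 to 1.07, so the groups were apart on these few counts, while those of Nanos3 overlapped. Fitted without the count minimum, the log2 fold changes were 0.90 (SE 0.78, edgeR adjusted p = 0.44) for Sall4, -1.34 (SE 0.63, edgeR adjusted p = 0.12) for Gfra1 and 0.19 (SE 0.88, edgeR adjusted p = 0.9) for Nanos3.

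The stage comparison, RS against Spc, asked how each gene's relative level moved from the meiotic to the post-meiotic fraction. It was made within each genotype in the fit of all 12 libraries, so the groups in it are those of the genotype comparisons and the values are given side by side. In CTRL 1 of the 10 genes was lower in RS (Id4) and 1 higher (Nanos3), against 34.7% of 18171 genes lower and 38% higher. In cKO 1 was lower (Id4) and 1 higher (Dmrt1), against 26.6% and 22.8%. These shares, under TMM scaling, are below those of all genes. Under library size alone, 6 of the 10 genes were lower in CTRL RS than in CTRL Spc and 0 higher, against 51.8% of all genes lower. With the CTRL libraries alone in the fit 4 were lower, against 39.7% of all genes, so the CTRL count depends on these choices.

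Id4 fell from Spc to RS by 2.50 on the log2 scale in CTRL (SE 0.19, edgeR adjusted p = 1.1e-06) and by 2.14 in cKO (SE 0.19, edgeR adjusted p = 1e-05). In both genotypes every RS library was below every Spc library. Dmrt1 was 0.66 higher in RS than in Spc in cKO (SE 0.22, edgeR adjusted p = 0.026), with groups that overlapped, and -0.46 in CTRL (SE 0.22, edgeR adjusted p = 0.08), where they did not. The Dmrt1 value in cKO lost its call without cKO Spc library 1 or 2 or without cKO RS library 1 (edgeR adjusted p of 0.084 to 0.11). Nanos3 was 0.72 higher in CTRL RS (SE 0.31, edgeR adjusted p = 0.05), a value at the threshold that lost its call when any of 9 libraries was left out (edgeR adjusted p of 0.05 to 0.16) and had an edgeR adjusted p of 0.7 when scaled by library size alone, and -0.62 in cKO (SE 0.32, edgeR adjusted p = 0.12). For the other 7 genes the log2 fold change lay between -0.73 (Sall4) and 0.42 (Sohlh1) in CTRL and between -0.61 (Kit) and 0.65 (Stra8) in cKO, none past the test. With library size in place of TMM, the further genes called lower in CTRL RS were Sall4 (-1.31, edgeR adjusted p = 0.0055), Uchl1 (-1.17, 0.0026), Dmrt1 (-1.05, 0.0022), Zbtb16 (-0.98, 0.019) and Stra8 (-0.92, 0.043). Of the 7, Uchl1 in CTRL passed when any of 4 libraries was left out (edgeR adjusted p of 0.031 to 0.043), Sall4 in CTRL without cKO RS library 1 or 3 (0.012 and 0.034) and Kit in cKO without cKO Spc library 2 (0.025). Dmrt1 in CTRL passed without cKO Spc library 3 (0.02) and Nanos3 in cKO without cKO RS library 1 (0.039).

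**Figure D3:**
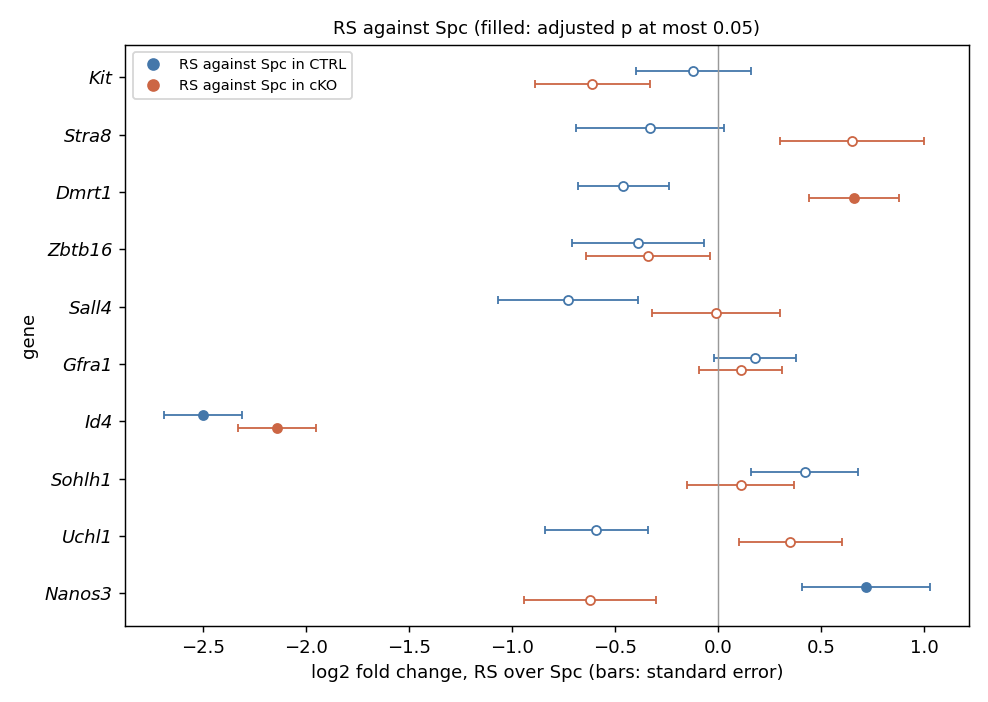
Log2 fold change of RS over Spc (x axis, bars are standard errors) of each gene (y axis) in CTRL and in cKO, with filled points at an edgeR adjusted p of at most 0.05. Id4 lies far to the left in both genotypes, at -2.50 and -2.14, and 4 genes, Dmrt1, Nanos3, Stra8 and Uchl1, lie on opposite sides of 0 in CTRL and cKO.

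At the level of transcripts, 39 annotated transcripts of the 10 genes were in the deposited transcript tables, of which 25 were tested in RS, 27 in Spc and 4 in CBs. In RS 19 were higher in cKO and 1 was lower, against 38.9% and 36% of 57133 transcripts. All tested transcripts of Stra8 (4), Dmrt1 (3), Sall4 (3) and Uchl1 (4) were among the higher ones, and the lower one was that of Nanos3. In Spc 5 were higher and 0 lower, against 16.1% and 12.5% of 57631 transcripts, namely 3 of Sall4, 1 of Kit and 1 of Zbtb16. The 5 became 0 without CTRL Spc library 3 or without cKO Spc library 3, and 10 with DESeq2. In CBs the 4 tested, 2 of Kit and 1 each of Zbtb16 and Id4, were all higher, against 17.8% of 30623 transcripts. Scaled by library size alone 1 was higher, and with single libraries left out 2 to 4 were. The tables share a read among the transcripts it matches, so transcripts of a gene are not independent of each other.

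Of 4 Kit transcripts tested in RS 3 were higher in cKO. The full-length Kit-201 was higher by 0.73 (SE 0.18, edgeR adjusted p = 0.0076), Kit-204 by 0.73 and Kit-205, of the retained-intron type, by 0.72. Kit-208, of the same type, which starts in the intron printed above, had a log2 fold change of 0.34 (SE 0.17, edgeR adjusted p = 0.11), and the difference between transcripts was not tested. Reads in exons that Kit-208 has in common with full-length Kit are shared among these transcripts, so a ratio of expected counts is not a ratio of amounts. The ratio of Kit-208 to Kit-201 expected counts was looked at after these values were seen and was not tested. It was 0.82, 0.80 and 0.91 in CTRL RS and 0.64, 0.67 and 0.61 in cKO RS, and 0.71, 0.61 and 0.63 in CTRL Spc and 0.55, 0.60 and 0.60 in cKO Spc. CTRL RS had the highest ratios of the Spc and RS groups without overlap. In CBs, where each transcript had only 5.33 to 29.9 expected counts per library, the ratio ranged from 0.64 to 1.18 in CTRL and from 0.29 to 0.58 in cKO.

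**Figure D4:**
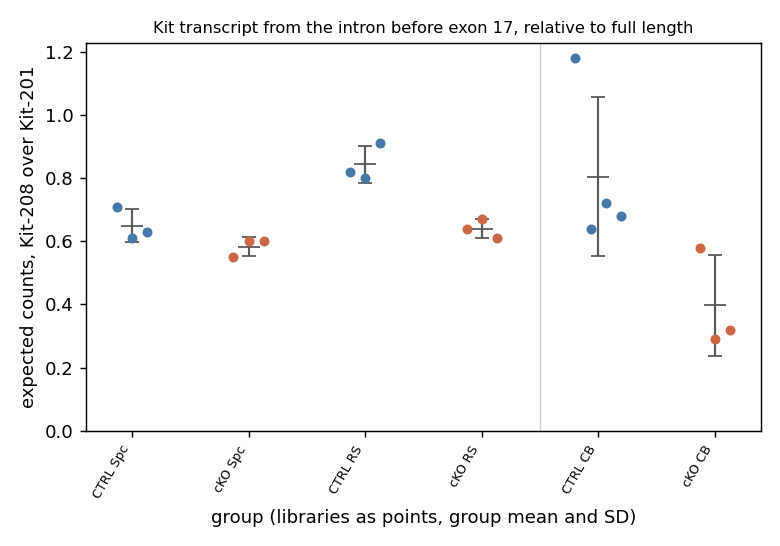
Ratio of expected counts of Kit-208 to the full-length Kit-201 (y axis) in every library (points) by group (x axis), with the group mean and SD. CTRL RS libraries sit at 0.80 to 0.91, above the 0.61 to 0.67 of cKO RS, and the CB libraries right of the grey line rest on few counts. Reads in exons common to both transcripts are shared between them, so the ratio is not one of transcript amounts.

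Other genes of the spermatogonial programs were looked at as fixed lists. Of 20 other genes of undifferentiated spermatogonia 16 were tested in RS, of which 10 were higher in cKO and 2 lower, with a median log2 fold change of 0.90, beside 38.4% of all genes higher, 34.3% lower and a median of 0.11. Upp1, a uridine phosphorylase, was 3.03 higher (SE 0.39, edgeR adjusted p = 0.00022), and Rarg, a retinoic acid receptor, was 1.99 higher (SE 0.17, edgeR adjusted p = 2.2e-05). Lhx1, a homeobox gene of the GDNF response, was lower (log2 fold change -2.80, edgeR adjusted p = 0.00012), as was Shisa6 (-1.25, edgeR adjusted p = 0.037). In Spc 6 were higher and 3 lower of 16 (all genes 14% and 14.1%), with Upp1 again the highest at 2.12 (edgeR adjusted p = 0.0062) and Etv5, a transcription factor downstream of GDNF, lower at -1.67 (edgeR adjusted p = 0.018). In CBs 7 were tested and 1 was higher (all genes 18.1%), Rarg at 1.23 (edgeR adjusted p = 0.024).

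Among 14 genes of differentiating spermatogonia and meiotic entry 12 were tested in RS, of which 6 were higher and 5 lower. Their median log2 fold change was 0.64, beside the same shares of all genes, 38.4% and 34.3%. The summed scaled CPM of the list went down, to 1045.1 to 1226.4 in cKO RS against 1561.7 to 1639.6 in CTRL RS. In CBs the sum was 285.9 to 339.8 in cKO against 431.0 to 510.7 in CTRL, and in Spc the groups overlapped. The D-type cyclin gene Ccnd2 was 2.54 higher (SE 0.44, edgeR adjusted p = 0.0011) and Lin28b, a regulator of let-7 maturation, 1.79 higher (SE 0.18, edgeR adjusted p = 4.5e-05). Dnmt3l, a cofactor of de novo DNA methylation, was lower at -2.53 (SE 0.32, edgeR adjusted p = 0.00019) and the meiotic cohesin gene Rec8 at -1.69 (SE 0.18, edgeR adjusted p = 6.7e-05). Both had higher mean scaled CPM in CTRL RS (30.9 for Dnmt3l, 245.2 for Rec8) than in CTRL Spc (8.12 and 64.1). In Spc 1 was higher, Lin28b at 0.66 (edgeR adjusted p = 0.019), and 2 were lower, Dnmt3l at -2.04 (edgeR adjusted p = 0.0059) and Rec8 at -1.22 (edgeR adjusted p = 0.028). Their median in Spc was 0.09, and 14% of all genes were higher there and 14.1% lower. In CBs 3 were higher and 3 lower of 12, beside 18.1% and 18.4% of all genes.

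A list of 27 genes was made for GDNF, KIT and retinoic acid signalling. It also holds Fgf2, Csf1, Cxcl12 and Cxcr4, which belong to other signals, and it shares Ret and Rarg with the undifferentiated list. Of the 27 genes 24 were tested in RS, of which 13 were higher in cKO and 8 lower (all genes 38.4% and 34.3%). Their median log2 fold change was 0.99. The highest were Cxcl12, a chemokine, at 4.19 (SE 0.60, edgeR adjusted p = 0.00038) and Csf1, a macrophage growth factor, at 3.80 (SE 0.61, edgeR adjusted p = 0.00074), both made by somatic cells of the testis. The lowest were the retinoic acid receptor gene Rarb at -2.60 (edgeR adjusted p = 0.00037) and Gfra2, a receptor related to GFRA1, at -2.45 (edgeR adjusted p = 0.00038). In Spc 5 were higher and 4 lower of 24 (all genes 14% and 14.1%), and in CBs 7 were higher and 3 lower of 14 (all genes 18.1% and 18.4%). Of 10 genes of early meiotic prophase, the stage next to preleptotene, 5 were higher and 2 lower in RS. Their median log2 fold change was 0.77 in RS (all genes 0.11) and 0.09 in Spc (all genes -0.01).

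Markers of other cells moved with genotype too, and their part in the results above was not tested. Sertoli cell markers summed to 150.8 to 353.4 scaled CPM in cKO RS and 84 to 105.0 in CTRL RS, and 12 of 13 tested were higher (38.4% of all genes). In Spc they went the other way, with 240.7 to 346.5 in cKO and 415.1 to 1132.2 in CTRL and 11 of 14 lower (14.1% of all genes). Leydig cell markers summed to 38 to 392.9 in cKO RS and 21.1 to 29.3 in CTRL RS (8 of 9 higher and 1 lower, all genes 38.4% and 34.3%). In Spc they summed to 676.5 to 1408.5 in cKO and 138.7 to 462.8 in CTRL (4 of 10 higher and 1 lower, all genes 14% and 14.1%). Erythroid markers summed to 67.7 to 249.7 in cKO RS and 22.5 to 26.2 in CTRL RS (4 of 5 tested higher), and to 1.58 to 3.48 in cKO Spc and 10.9 to 20.9 in CTRL Spc (1 of 4 lower). By library, in the order 1 to 3, cKO RS had erythroid sums of 249.7, 67.7 and 152.9, Leydig sums of 104.9, 38 and 392.9, Sertoli sums of 239.0, 150.8 and 353.4 and sums over the 10 spermatogonial genes of 141.0, 93.5 and 93.6. Among these libraries 9 of the 10 genes, all but Id4, were highest in library 1. Without library 1, 7 of the 10 genes were higher in cKO RS, and without library 3, 8 were. Over all genes 5764 and 6046 were higher in those fits, and 6713 with all libraries.

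Macrophage markers were higher for 12 of 14 genes in cKO RS, 1 being lower (all genes 38.4% and 34.3%), and their sum was 401.0 to 660.8 in cKO RS and 591.9 to 722.5 in CTRL RS. Most of the CTRL sum was the lower gene, Aif1, with 467.1 to 578.7 in CTRL RS and 73.2 to 106.1 in cKO RS. Without it, a sum chosen after seeing the data, the other 13 markers had 294.9 to 587.6 in cKO RS and 64.4 to 143.7 in CTRL RS. In cKO Spc 10 of 14 were higher and 2 lower (all genes 14% and 14.1%), with sums of 156.5 to 316.7 in cKO and 150.4 to 292.4 in CTRL, or 100.7 to 276.6 and 73.7 to 146.7 without Aif1. Of 8 peritubular markers 2 were higher and 2 lower in RS, and of 7 endothelial markers 1 was higher and 2 lower, shares below those of all genes in RS in both directions. In cKO CBs, in the order in which the gene values are given, the Leydig sum was 52.1, 352.7 and 516.3 scaled CPM, against 21.7 to 85.1 in CTRL CBs, and 8 of 9 markers were higher and 1 lower (all genes 18.1% and 18.4%). Sertoli markers summed to 49.7 to 139.5 in cKO CBs and 35.2 to 56.3 in CTRL CBs. No gene of the Sertoli, Leydig or macrophage lists was at 0 in a whole group of Spc or RS, and 1 Sertoli gene was at 0 in all cKO CBs.

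Genes of elongating spermatids summed to 30789.0 to 40817.1 scaled CPM in CTRL RS and 2045.8 to 2096.9 in cKO RS, and all 10 were lower in cKO. TMM factors were 0.72 to 0.77 in CTRL RS and 1.13 to 1.18 in cKO RS, and with library size in place of TMM the median log2 fold change over all genes in RS was 0.73, so the changes above are relative to the bulk of genes. Under that scaling 8 of the 10 genes were higher (58.5% of all genes) and 0 lower in RS, with log2 fold changes from 1.23 (Kit) to 2.54 (Stra8) for the 7 genes named as higher above. The fall of Id4 from Spc to RS in CTRL was then -3.09, and the interaction of Dmrt1 was 1.81.

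**Figure D5:**
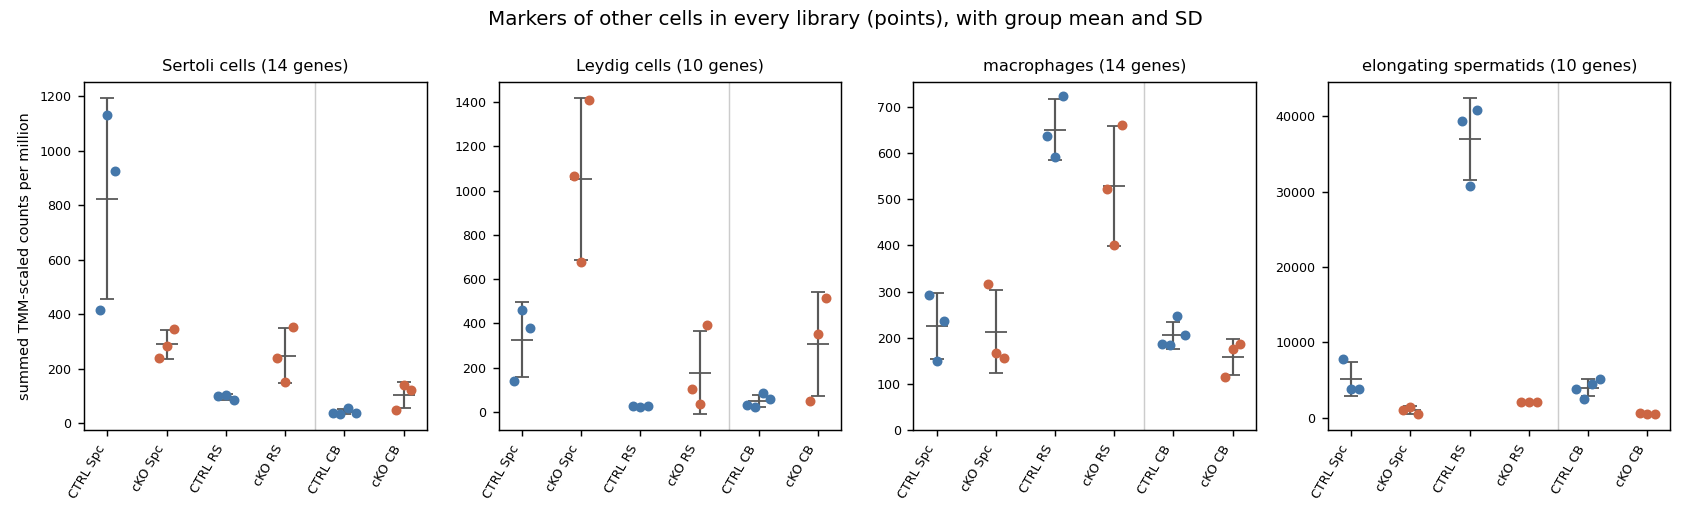
Summed scaled CPM (y axis) of markers of Sertoli cells, Leydig cells, macrophages and elongating spermatids in every library (points) by group (x axis), with the group mean and SD, CB libraries being right of the grey line. Leydig sums are higher in cKO than in CTRL in Spc and RS, Sertoli sums go down in cKO Spc and up in cKO RS, and elongating spermatid genes drop to 2045.8 to 2096.9 in cKO RS.

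As a description of how the 10 genes vary among themselves, Pearson's r of log2 scaled CPM was taken over the 12 Spc and RS libraries, which share their cell type and genotype groups. Zbtb16 and Sall4 were most alike (r = 0.92), followed by Stra8 and Sall4 (0.87) and Stra8 and Dmrt1 (0.85). Nanos3 ran against most others, down to -0.65 with Stra8. The gene outside the 10 most like each was Frmd5 for Kit (0.954), Esrp1 for Stra8 (0.984), Ypel2 for Dmrt1 (0.957) and Slc28a3 for Zbtb16 (0.959). It was Fsd1 for Sall4 (0.967), Prr5 for Gfra1 (0.788), Ufl1 for Id4 (0.997), Prss36 for Sohlh1 (0.924), Ndrg4 for Uchl1 (0.953) and 4933425B07Rik for Nanos3 (0.955).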

How the data were processed

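The 19 RNA-seq libraries of Spc, RS and CBs were used, and the small RNA libraries were not used here. The authors used cutadapt 2.8 for trimming, STAR for alignment (GRCm38, version 2.7.1a in the submitters' processing notes and another in the study's methods) and TEtranscripts for counting, and the deposited tables hold whole-number counts per gene. The deposited transcript tables, made by the authors with featureCounts 2.0.1, hold expected counts, in which a read is shared among the transcripts it matches, and these were rounded for the tests. Rows of transposable elements were left out. Table columns of CB libraries carry numbers other than the labels' and were taken as libraries of their genotype.

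Tests used edgeR 4.0.16 in R 4.3.3 (TMM, quasi-likelihood, two-sided, Benjamini-Hochberg over all genes tested), each fraction in a fit of its own and stage and interaction in a fit of 12 libraries. Genes needed 10 counts and transcripts 20 in at least 3 libraries. Library size in place of TMM, DESeq2 1.42.0, the 6 libraries of a genotype for the stage comparisons, no count filter, summed transcripts, a block of the replicate number and fits without each single library were the alternatives. The fits were tested on simulated data. The correlations used a pseudocount of 0.5, and lengths were those in the deposited transcript tables, with GENCODE vM21 lengths as an alternative added later. The lengths differed for 2 of the 10 members, Id4 and, slightly, Zbtb16.

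Members and lists were chosen with earlier results of these data known. All 10 members are named, from the other lists at most the 2 highest and 2 lowest genes past the threshold, Smg6 as a check, and for each member the gene with the highest r. Within a group no pair of libraries agreed within counting noise (chi-square per degree of freedom of at least 9.89).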

Additional observations from a re-analysis of the deposited data

Results flagged for a closer look

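In the CTRL CB libraries, single libraries stood away from the others by Dixon's test for Stra8, with 6.63 scaled CPM in the highest library, and for Dmrt1, with 2.06 scaled CPM in the lowest. Chance alone marks about 1 in 20 such groups, and 10 genes were looked at. The log2 fold change between genotypes was larger in RS than in Spc by 1.11 for Dmrt1 (SE 0.31, edgeR adjusted p = 0.014), all 3 cKO RS libraries being above CTRL RS while the Spc groups overlapped. For Nanos3 the difference between RS and Spc was -1.35 (SE 0.44, edgeR adjusted p = 0.029), and it rests on 13 to 36 counts per library.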

How the results depend on the processing

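The cause of the changes below was not tested. With each library left out, 6 to 8 members were higher and 1 lower in cKO RS, 3 to 4 higher and 0 to 1 lower in CBs and 0 to 2 higher in Spc. Over all genes these fits called 2042 to 4234 in Spc, 11018 to 12347 in RS and 3863 to 5243 in CBs. In the stage comparison they gave 0 to 1 higher and 1 to 3 lower members in CTRL and 0 to 1 higher and 1 to 2 lower in cKO, and for the interaction 1 to 2 higher and 0 to 1 lower. Over all genes the calls numbered 12189 to 13201 in CTRL, 7149 to 9492 in cKO and 6012 to 8920 for the interaction. Transcripts of the members that were higher numbered 0 to 7 in Spc and 2 to 4 in CBs.

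DESeq2 gave 4 members higher in Spc in place of 1, 2 lower in RS against Spc in CTRL, 2 higher in the interaction and 10 transcripts higher in Spc in place of 5. Over all genes DESeq2 called 2995 higher in Spc, 6269 lower in CTRL RS against Spc and 4132 higher in the interaction. By edgeR these were 2431, 6311 and 3459. Scaled by library size alone, 0 members were lower in cKO RS, 1 lower in CBs, 0 higher and 6 lower in CTRL RS against Spc, and 5 higher and 0 lower in the interaction. That scaling gave 1 transcript higher in CBs and a summed level of 44.9 CPM in CTRL RS in place of 60.5. Calls over all genes were 76% upward in RS, 38.1% in CBs, 31.4% in CTRL RS against Spc, 56.8% in cKO RS against Spc and 93.7% in the interaction under library size, and 52.8%, 49.6%, 52.3%, 46.1% and 44.2% under TMM. Without the count filter 1 member was lower in CBs, 0 higher and 2 lower in CTRL RS against Spc, and 2 transcripts were lower in RS and 9 higher and 1 lower in CBs. Over all genes 2913 were then lower in CBs, and 6856 were higher and 6483 lower in CTRL RS against Spc. With summed transcripts 0 members were higher and 3 lower in CTRL RS against Spc, and 2 higher in the interaction, beside 8226, 7336 and 3751 of all genes. With the 6 libraries of a genotype alone 0 members were higher and 4 lower in CTRL, and 0 higher in cKO, beside 6169, 6775 and 3354 of all genes.

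Signs turned only for values that had not passed the test. In RS Gfra1 was 0.57 under library size and 0.02 with summed transcripts, and in CBs Uchl1 was 0.05 with summed transcripts. In CTRL RS against Spc Gfra1 was -0.41 and Sohlh1 -0.17 under library size. In cKO RS against Spc Sall4 was 0.07 with DESeq2 and 0.11 under library size. In the interaction Kit was 0.22, Gfra1 0.64 and Sohlh1 0.39 under library size, and Gfra1 was 0.00 with DESeq2 and 0.00 with summed transcripts. With each library left out, signs turned for Dmrt1 in Spc (-0.40 to 0.09) and CBs (-0.73 to 0.04), Gfra1 in Spc (-0.19 to 0.03) and RS (-0.16 to 0.16), Nanos3 in Spc (-0.29 to 0.04) and Kit in CTRL RS against Spc (-0.30 to 0.07). They also turned in cKO RS against Spc for Zbtb16 (-0.62 to 0.00), Sall4 (-0.53 to 0.25), Gfra1 (-0.05 to 0.28) and Sohlh1 (-0.12 to 0.35), and in the interaction for Zbtb16 (-0.23 to 0.40) and Gfra1 (-0.23 to 0.10).

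With replicate numbers as a block, Kit passed in Spc (0.93, edgeR adjusted p = 0.034), Sall4 did not (0.97, adjusted p = 0.057), 0 members were higher in CTRL RS against Spc and 8 transcripts were higher in Spc. Deviations of same-numbered libraries correlated from -0.27 to 0.60, and 2, 2, 0 and 4 of 6 libraries correlated best with their own number in the 4 sets of pairs, so the numbers were not taken to pair libraries. No paired analysis was possible for CBs because their columns do not carry the labels' replicate numbers. CB libraries had the fewest counts, and 3 members were left out there by the count minimum.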

Other observations

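The stage comparison gives values for other genes of these programs that no comparison above used. From Spc to RS in CTRL, 6 of 12 genes of differentiating spermatogonia and meiotic entry were higher and 4 lower, near the 38% and 34.7% of all genes. Rec8 at 1.94 (SE 0.28, edgeR adjusted p = 7.6e-05) and Dnmt3l at 1.93 (SE 0.33, edgeR adjusted p = 0.00026) were highest, and Lin28b at -2.05 (SE 0.16, edgeR adjusted p = 1.2e-06) was lowest. In cKO 7 of 12 were higher and 1 lower, beside 22.8% and 26.6% of all genes, with Rec8 at 1.34 (edgeR adjusted p = 0.0022) and Lin28b at -1.03 (edgeR adjusted p = 0.00025). Of the genes of undifferentiated spermatogonia, Etv5 was lower in CTRL RS than in CTRL Spc (log2 fold change -2.65, edgeR adjusted p = 0.00016), and its interaction of genotype and cell type was 2.87 (SE 0.57, edgeR adjusted p = 0.0029). Etv5 is also made by Sertoli cells, and over the 14 Sertoli markers the same interaction was higher for 14, with a median of 3.13. Their part in the Etv5 values was not tested. Etv5 had 9.81 to 22.1 scaled CPM in CTRL Spc, 4.02 to 7.99 in cKO Spc, 2.03 to 3.22 in CTRL RS and 3.33 to 8.59 in cKO RS.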
